A study of Mus musculus with 6 samples.

Results

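Molecular chaperones are proteins that bind unfolded polypeptides and help them to fold. Hsp70 proteins do this in cycles of ATP hydrolysis that are started by DnaJ cochaperones and reset by nucleotide exchange factors. Hsp90 proteins act later on signalling clients such as kinases, and the chaperonins are barrel-shaped complexes that enclose a client, TRiC in the cytosol and Hsp60 with its lid Hsp10 in mitochondria. In helper T lymphocytes, chaperone expression is known to increase on activation, and heat shock factor 1 drives the stress-induced members through heat shock elements in their promoters. The genes described here are those whose mouse symbol begins with Hspa, Hspb, Hspd, Hspe or Hsph and a number, with Hsp90, with Dnaja, Dnajb or Dnajc and a number, or with Cct and a number, together with Tcp1 and Trap1. This gave 71 genes, each with 1 RefSeq accession, of the 13177 accessions in the count table, and 12 further symbols of the same form in the RefSeq gene table are not analysed here. They comprised 8 Hsp70 genes, 3 genes of the related Hsp110 exchange factors, 4 Hsp90 genes, 2 genes of the mitochondrial chaperonin, 6 small heat shock protein genes, 9 TRiC genes, and 4 Dnaja, 12 Dnajb and 23 Dnajc genes.

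The RNA came from mouse CD4+ T cells purified by magnetic separation and was sequenced as single reads. Of the 6 libraries, 3 are titled as controls and described as taken at 0 h, and 3 were taken 8 h after transfection with a synthetic miR-155 oligonucleotide, miR-155 being a microRNA of activated lymphocytes. The treatment label is the same in both groups and names the oligonucleotide, no library here is labelled as taken at 8 h without it, and strain, age and sex are not given, so time and oligonucleotide cannot be told apart. The 8 h samples are described as CD5+ T cells in 1 label and as CD4+ in others. Nothing in the labels says whether replicates came from separate animals or cultures, so p-values reflect only how much these samples varied, and that variation may be technical. Fewer cells of a type and less RNA per cell cannot be told apart in such bulk libraries.

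Libraries held between 4564010 and 13675127 counts, so that 1 count was worth between 0.0731 and 0.219 CPM (counts scaled to the same total in each library). Of 10 T cell genes listed as markers of CD4+ T cells, 6 had enough counts to be tested. Cd4 itself was not among them, with 5 to 10 counts in every library, and Zap70 had at most 17. Summed, the listed genes took 0.290% to 1.86% of counts in controls and 0.393% to 1.36% at 8 h. Single genes weighed heavily in single libraries. Lck had 162085 counts in control 3 against 171 and 226 in controls 1 and 2, and Cd3d had 73937 in control 2. Apart from Cd4, the list does not separate CD4+ from CD8+ T cells. Markers of natural killer cells took 0.0223% to 0.235% in controls and 0.00574% to 0.0164% at 8 h, without overlap. Nkg7 and Gzma held most of that sum in every library, Nkg7 with 18478 counts in control 3. Of the 5 genes, Klrb1c and Gzma had groups that did not overlap, where the share over all tested accessions was 10.9%. Ncr1 had a higher fitted value at 8 h, with 141 counts in 8 h replicate 1, and the other 4 a lower one. Both CD8 markers took at most 0.00606%, B cell markers at most 0.0102%, and myeloid and erythroid or platelet markers at most 0.00719% in any library. Cd8a had 6 to 72 counts and Cd8b1 7 to 511, against 5 to 10 for Cd4. The B cell marker Ms4a1 had control counts of 21, 15 and 30 and 8 h counts of 324, 574 and 207, and its groups did not overlap. Csf1r, of macrophages, had at most 3 counts and was at 0 in control 1. The other myeloid markers were higher in single libraries. Cd14 reached 189 counts and S100a8 36 in control 2, and Lyz2 reached 138 in control 3. In 8 h replicate 1 Itgam reached 36 and S100a9 21. The part of other cell types in the chaperone values was not tested.

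The first sequences shown are those of the transfected microRNA and of its seed matches in chaperone transcripts. The mature strand, on chromosome 16 of GRCm38.p6 (84714143 to 84714165), is printed 5′ to 3′ with its seed, bases 2 to 8, in capitals.
mmu-miR-155-5p: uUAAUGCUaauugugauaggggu
A match to the seed (AGCATTA, or GCATTAA, the form that ends in A) was found in the longest annotated 3' UTR of 6 of 70 chaperone genes with such a region, 8.57%, against 13.0% of 12581 accessions of the whole table. Below, the match is in capitals. The sites are in Dnaja1 (2 sites) and Dnajb1, DnaJ partners of cytosolic Hsp70, in Dnajc27, a DnaJ protein with a GTPase domain, and in Dnajb4, Dnajc14 and Dnajc3, the last of which serves Hsp70 in the endoplasmic reticulum.
Dnaja1, first site: gttcatcaaAGCATTAtgggctttt
Dnaja1, last site: tgctaatatAGCATTAgcatttaag
Dnajb1: cagtgtgacAGCATTAAagactgatg
Dnajc27: tctcagcagAGCATTAggaaacaac
Dnajb4: tgttacttgGCATTAAttgtccatt
Dnajc14: tttctccccAGCATTAtgagaaaat
Dnajc3: catgggcagAGCATTAtggttgcct
Only 3 of these genes had enough counts for a test. Dnaja1 had control counts (replicates 1 to 3) of 7, 13 and 4 and 8 h counts of 8, 20 and 24, and Dnajb1, with the longest match, had 7, 9 and 59 against 20, 8 and 20. The groups overlapped for both genes, and the fitted log2 difference of Dnaja1 was 0.51 ± 1.17 SE (edgeR adjusted p = 0.933). Dnajc27 had all 8 h values above all control values, at 3.41, 0.88 and 2.28 CPM in controls and 15.1, 4.90 and 4.16 CPM at 8 h. The sites thus lay in 2 tested genes with a higher and 1 with a lower fitted value at 8 h, none past the test. Dnajb4, Dnajc14 and Dnajc3 had at most 14 counts in any library.

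Across the chaperone genes, no difference between 8 h and control passed the test. Of the 71 genes 39 had enough counts, and edgeR's quasi-likelihood test called 0 of them at an adjusted p under 0.05, with adjusted p from 0.609 to 0.997. It called 0% of all 8308 tested accessions too. At an unadjusted p under 0.05 it gave 0 chaperone genes, against 8.53% of all tested accessions. DESeq2's Wald test called 1 of the 31 chaperone genes to which it gave an adjusted p, Cct5, against 6.06% of all accessions, and gave 6 of 36 at an unadjusted p under 0.05, against 18.5%. The groups did not overlap for 4 of the 39 genes, 10.3%, where the share over all tested accessions was 10.9%. Dnajc9, Dnajc12 and Dnajc27 had every 8 h library above every control (7.69%, against 6.23% of all), and Cct5 had every one below (2.56%, against 4.65% of all). Fitted values were higher at 8 h for 26 genes and lower for 13, or 66.7% higher against 51.3% of all tested accessions and 33.3% lower against 48.7%. The median log2 fold change was 0.52, against 0.06 over all tested accessions, but it came to 0.10 without 8 h replicate 3, 0.12 without 8 h replicate 2 and 0.18 without control replicate 1. The median standard error of a log2 fold change was 1.73 for chaperone genes and 1.71 for all tested accessions. The highest library of a group typically stood about an order of magnitude above the lowest: the median ratio over tested chaperone genes was 10.2 among controls and 8.42 among 8 h libraries, and over all tested accessions 9.94 and 10.4.

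**Figure D1:**
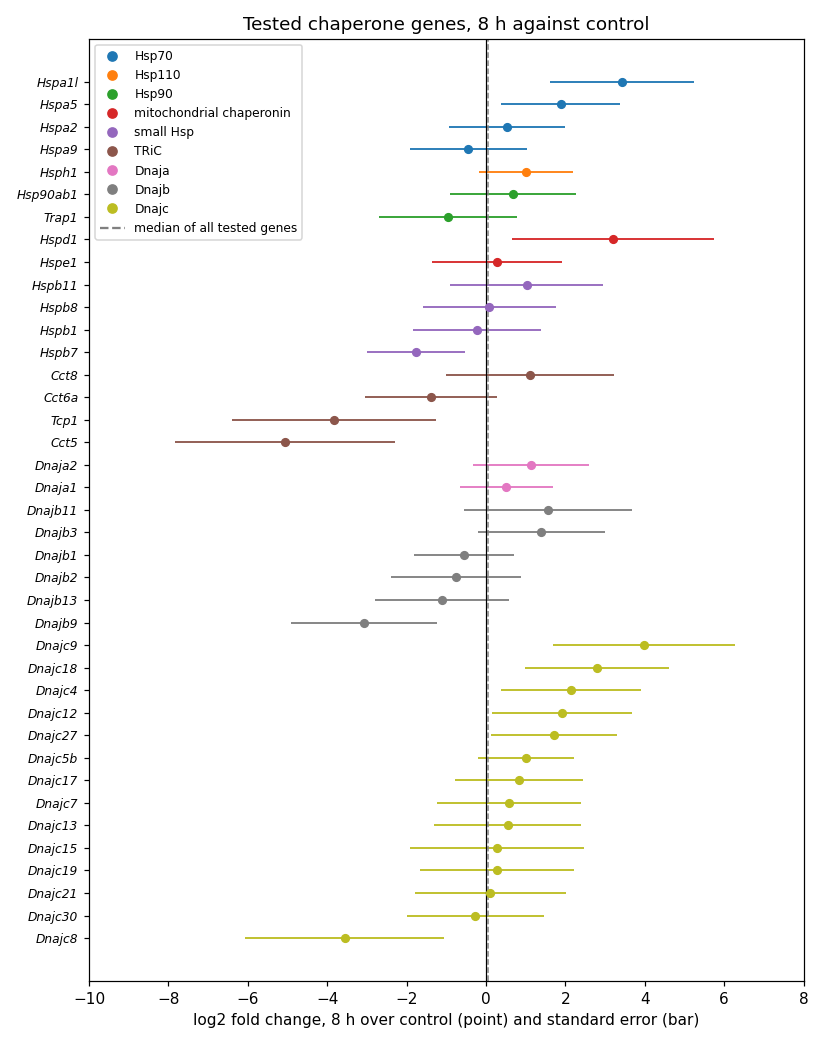
Log2 fold change of each of the 39 tested chaperone genes, 8 h over control (x axis; right means higher at 8 h), with bars of 1 standard error from edgeR's fit and colours for the classes. The dashed line is the median over all tested accessions, 0.06. Values run from -5.07 for Cct5 to 3.98 for Dnajc9, and no gene passed the test.

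The counts were concentrated on few genes. The 71 genes together took 1.01%, 2.45% and 2.57% of the control libraries and 2.43%, 0.405% and 1.39% of the 8 h libraries, in replicate order. In each library the 6 most abundant chaperone genes held between 83.6% and 97.8% of that. By mean CPM, 9 genes lay above the 95th percentile of the table, while 38 lay below the median accession. Among the low ones were genes that are known as abundant chaperones. Hspa8, the constitutive cytosolic Hsp70, had control counts of 6, 1 and 14 and 8 h counts of 10, 3 and 9, which put its mean CPM at percentile 18.1 of the table. Hsp90aa1, the inducible cytosolic Hsp90, had 4 to 28 counts, Hsp90b1, its counterpart in the endoplasmic reticulum, 3 to 29, and Hspa4, an Hsp110 exchange factor, 1 to 5. The authors' counting of reads is not described in the sources used here, so it is uncertain that the values are ordinary per-gene counts, and all levels below carry that limit.

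**Figure D2:**
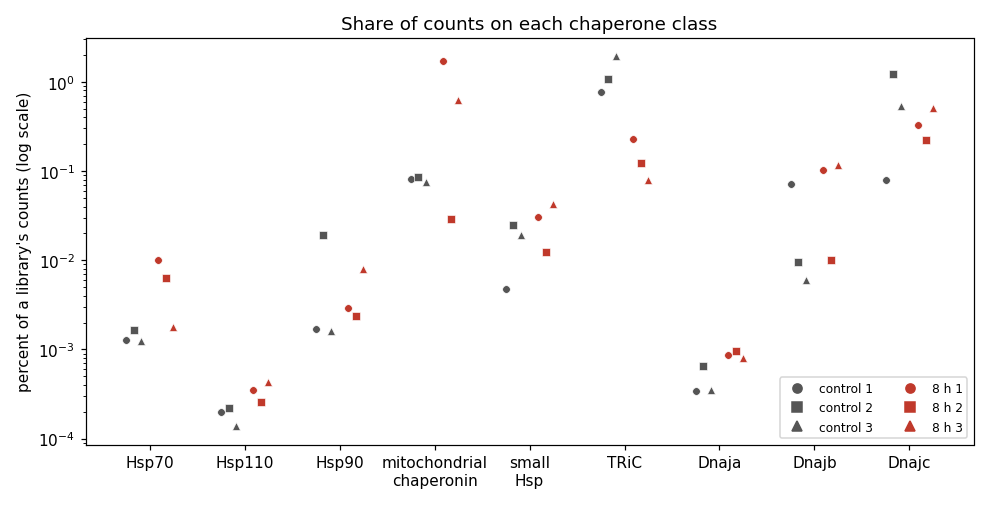
Share of each library's counts on each chaperone class, in percent on a log scale, with controls in grey, 8 h libraries in red and replicate number by marker shape. TRiC genes lie between 0.772% and 1.93% in controls and between 0.0801% and 0.228% at 8 h.

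TRiC is the ring complex that folds actin and tubulin and holds each of its subunits in equal number. Its groups of libraries did not overlap in summed share, which was also so for the Hsp70, Hsp110 and Dnaja classes, in the other direction. For those 3 classes the 95% Wilson intervals of the nearest libraries of the groups overlapped, for Hsp70 0.00131% to 0.00206% in control 2 and 0.00146% to 0.00212% in 8 h replicate 3. The 9 TRiC genes, the testis form Cct6b included, took 1.26 ± 0.599% of control counts and 0.144 ± 0.0762% of 8 h counts (SD, n = 3 per group). The lowest control share was 0.772% (95% Wilson interval 0.766% to 0.779%) and the highest 8 h share 0.228% (0.225% to 0.231%), where intervals cover counting error only. Cct5 held 92.5% and 49.9% of the TRiC counts in controls 1 and 2, and Tcp1 held 51.4% in control 3. Cct8 held the most in 8 h replicates 1 and 2, and Tcp1 in replicate 3. Of the tested TRiC genes only Cct5 had groups that did not overlap. The place of control 1 above the 8 h libraries thus rested on Cct5, and the summed share does not describe the complex as a whole. Cct5, the epsilon subunit (chromosome 15, 31590800 to 31601846, GRCm38), stood at 7149, 5395 and 9306 CPM in controls 1 to 3 and at 452, 223 and 24.0 CPM in the 8 h replicates. Every control was thus above every 8 h library, and the group means of 7283 ± 1959 CPM (SD, n = 3) and 233 ± 214 CPM (SD, n = 3) differed 31.3-fold. Its fitted log2 difference (log2 fold change, 8 h over control) came to -5.07 ± 2.78 SE (edgeR adjusted p = 0.618), so the difference did not pass. DESeq2 gave it an adjusted p of 0.0127, and over all alternatives it ranged from 0.0127 to 0.998. Leaving out each library in turn, its log2 fold change stayed between -5.95 and -4.52.

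Tcp1, the alpha subunit (chromosome 17, 12916329 to 12925067), stood at 90.9, 4816 and 9916 CPM in the controls, and its 8 h values were 253, 160 and 746 CPM. Control 1 lay below every 8 h library and the other 2 controls far above, so the groups overlapped. The fitted log2 difference came to -3.83 ± 2.57 SE (edgeR adjusted p = 0.680). Cct8, the theta subunit (chromosome 16, 87483325 to 87495869), had the opposite sign, with 478, 573 and 53.0 CPM in controls and 1567, 838 and 13.5 CPM at 8 h. The first 2 libraries at 8 h were the highest for Cct8 and the last was the lowest of all 6. Its fitted log2 difference came to 1.11 ± 2.12 SE (edgeR adjusted p = 0.913), or 0.25 without 8 h replicate 1 and 1.73 without 8 h replicate 3. Cct6a, the zeta subunit and the only other TRiC gene with enough counts for a test, had control counts of 26, 94 and 164 and 8 h counts of 47, 18 and 54. The 4 remaining ring subunits, Cct2, Cct3, Cct4 and Cct7, had at most 30 counts in any library. Cct4, the delta subunit, had 1, 0 and 3 counts in the same controls in which Cct5 had 46145, 24625 and 114499. Per transcript length, the mean level was 2028 CPM per kilobase for Cct5 and 0.0493 CPM per kilobase for Cct4. Over the 7 ring subunits with a known length, the highest stood above the lowest one detected by a factor of 2422 in 8 h replicate 3 and of up to 61859 in control 1. Cct6b, which was not tested, had control counts of 5, 18 and 56 and 8 h counts of 0, 5 and 4.

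**Figure D3:**
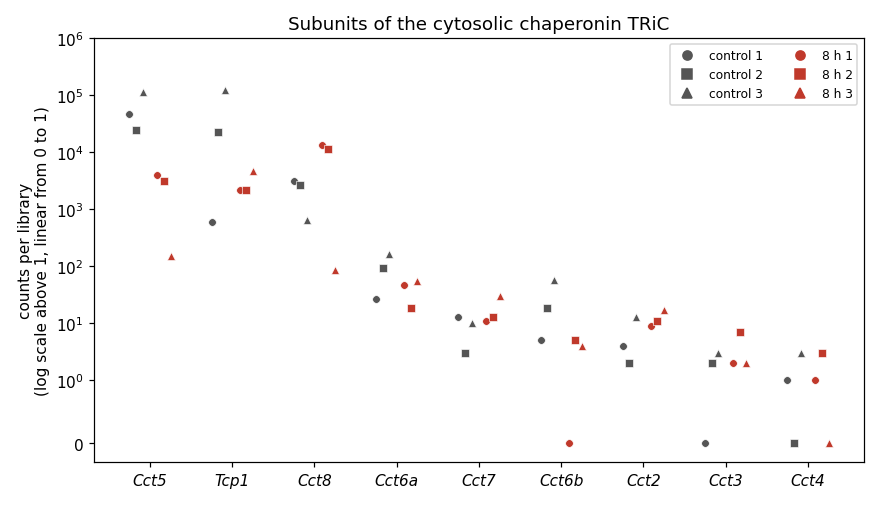
Deposited counts of each TRiC gene (y axis, log scale above 1 count and linear from 0 to 1) in the 6 libraries, controls in grey and 8 h in red, with genes ordered by mean CPM. Cct5 separates the groups, Tcp1 and Cct8 overlap, and Cct2, Cct3, Cct4 and Cct7 lie at or below 30 counts.

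In the mitochondrial chaperonin, Hspd1 (Hsp60) was steady among controls and scattered at 8 h. Hspd1 (chromosome 1, 55077833 to 55088243) stood at 818, 852 and 729 CPM in controls, a highest-to-lowest ratio of 1.17, and at 17215, 274 and 6293 CPM in 8 h replicates 1 to 3, a ratio of 62.9. 8 h replicates 1 and 3 lay above all controls and replicate 2 below all of them. Means were 799.8 ± 63.5 CPM (SD, n = 3) and 7927 ± 8588 CPM (SD, n = 3), for a fitted log2 difference of 3.20 ± 2.55 SE (edgeR adjusted p = 0.745), or 1.83 without 8 h replicate 1. Hspe1, the Hsp10 lid (chromosome 1, 55088148 to 55091317), lies head to head with Hspd1, and both are transcribed outward from the same stretch. The Hspe1 promoter is shown because its counts went apart from those of Hspd1 although its start region and that of 1 RefSeq start of Hspd1 overlap by 285 of 300 bases. It spans 250 bases before to 50 after the start (chr1:55087898-55088197, plus strand, GRCm38.p6, RefSeq), and capitals mark heat shock elements, written GAANNTTC or TTCNNGAA and searched on both strands.
Hspe1: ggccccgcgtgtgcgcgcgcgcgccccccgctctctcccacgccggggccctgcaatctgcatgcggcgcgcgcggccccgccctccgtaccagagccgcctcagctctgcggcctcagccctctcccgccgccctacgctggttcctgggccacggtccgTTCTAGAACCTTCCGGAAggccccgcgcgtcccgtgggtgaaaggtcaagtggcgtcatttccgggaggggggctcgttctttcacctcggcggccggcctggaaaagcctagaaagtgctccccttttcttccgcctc
Hspe1 had control counts of 10, 20 and 186 and 8 h counts of 8, 199 and 81, or 1.55, 4.38 and 15.1 CPM against 0.94, 14.6 and 13.0 CPM. The library with the most Hspd1, 8 h replicate 1, thus had the least Hspe1. Per transcript length Hspd1 exceeded Hspe1 by a factor of 6.01 in 8 h replicate 2 and of 5868 in 8 h replicate 1, where Hspe1 rested on 8 counts. The fitted log2 difference of Hspe1 came to 0.28 ± 1.63 SE (edgeR adjusted p = 0.976).

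Heat shock elements in either of the exact forms searched were present in the promoters of 17 of the 58 chaperone genes with a RefSeq promoter entry, 29.3%, against 16.97% of 27025 genes. GAANNTTC was found in 13 of the 58 (22.4%, against 9.04% of all) and TTCNNGAA in 8 (13.8%, against 9.60%), where both forms can overlap. Of the 9 tested chaperone genes with an element 6 had higher and 3 lower fitted values at 8 h, with a median log2 fold change of 0.28. The 24 tested genes with a promoter entry but no match had a median of 0.53. Cct5 and Dnajc27 held an element and were among the 4 genes whose groups did not overlap, in opposite directions. The full endoplasmic reticulum stress element, searched on both strands, was found in Hspa5, Hsp90b1 and Dnajc3, 3 of 58 chaperone genes, against 0.137% of all genes. A match is a description of the letters and not of binding. Inexact heat shock elements were not searched, so a gene without a match, such as Dnajb1, may still hold one.

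Hsp70 genes had few counts. They took 0.00139 ± 0.000221% of control counts and 0.00607 ± 0.00418% of 8 h counts (SD, n = 3 per group), the lowest 8 h share of 0.00176% standing just above the highest control share of 0.00164%. In 8 h replicate 1 the untested Hspa1a (400 counts) and Hspa12b (346) held most of the 863 counts of the class. In 8 h replicate 2 Hspa1l held 72.0% of them. The summed share thus does not describe the Hsp70 genes as a whole. Hspa5 (BiP), the Hsp70 of the endoplasmic reticulum (chromosome 2, 34772090 to 34776529), had control counts of 7, 4 and 27 and 8 h counts of 82, 10 and 45. That is 1.08, 0.88 and 2.19 CPM against 9.61, 0.73 and 7.21 CPM, with 8 h replicate 2 below every control. Its fitted log2 difference came to 1.88 ± 1.49 SE (edgeR adjusted p = 0.744), or 1.24 without 8 h replicate 1. Hspa9, the mitochondrial Hsp70, had control counts of 8, 43 and 36 and 8 h counts of 6, 73 and 24, and the groups overlapped. Hspa1l, a form known mainly from testis, had control counts of 2, 19 and 5 and 8 h counts of 1, 624 and 11. Its log2 fold change of 3.41 ± 1.81 (SE; edgeR adjusted p = 0.609) turned to -0.80 without 8 h replicate 2, the library with 624 counts. Hspa2, a form needed in male germ cells, had control counts of 13, 6 and 62 and 8 h counts of 12, 130 and 14, with 8 h replicate 2 again the highest.

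The stress-induced pair Hspa1a and Hspa1b had too few counts for a test. Their promoters are shown because the counts of these near-identical copies went apart. Each is given for its minus strand, 5′ to 3′, with heat shock elements in capitals (chr17:34972107-34972406 for Hspa1a and chr17:34959189-34959488 for Hspa1b, GRCm38.p6, RefSeq).
Hspa1a: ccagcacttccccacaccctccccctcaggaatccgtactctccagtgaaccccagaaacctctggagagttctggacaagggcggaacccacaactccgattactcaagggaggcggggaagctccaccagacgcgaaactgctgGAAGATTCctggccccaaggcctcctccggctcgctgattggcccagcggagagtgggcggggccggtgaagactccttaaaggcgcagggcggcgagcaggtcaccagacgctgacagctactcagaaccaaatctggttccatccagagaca
Hspa1b: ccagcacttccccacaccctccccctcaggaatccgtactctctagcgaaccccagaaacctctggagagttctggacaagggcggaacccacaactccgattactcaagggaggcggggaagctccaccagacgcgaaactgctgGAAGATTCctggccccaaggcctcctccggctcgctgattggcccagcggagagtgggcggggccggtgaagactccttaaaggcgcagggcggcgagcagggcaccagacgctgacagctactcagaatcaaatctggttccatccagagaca
The 2 sequences differed at 4 of 300 bases and held the same element. Hspa1a had control counts of 4, 0 and 1 and 8 h counts of 400, 18 and 3, so that its high value was that of 8 h replicate 1 alone. The 0 in control 2 allows up to 0.657 CPM. Hspa1b had control counts of 28, 2 and 1 and 8 h counts of 6, 8 and 1. Because the transcripts are near-identical copies and the treatment of reads that match both is not given, the split of reads between them is uncertain. Hspa12b, a distant Hsp70 relative of endothelium, showed the same shape as Hspa1a, with control counts of 14, 0 and 8 and 8 h counts of 346, 1 and 3. Of the Hsp110 exchange factors, Hsph1 had control counts of 10, 7 and 4 and 8 h counts of 21, 19 and 22, while in CPM 8 h replicate 2 (1.39 CPM) lay among the controls (0.325 to 1.55 CPM).

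Hsp90 genes took 0.00159% to 0.0192% of counts in controls and 0.00238% to 0.00804% at 8 h, and the difference in mean share of -0.00306 percentage points turned to 0.00280 without control 2. Hsp90ab1, the constitutive cytosolic form that stabilises kinases and steroid receptors, had control counts of 5, 6 and 132 and 8 h counts of 62, 192 and 8. In CPM these were 0.77, 1.31 and 10.7 against 7.26, 14.0 and 1.28, and each group held both low and high libraries. The fitted log2 difference came to 0.69 ± 1.59 SE (edgeR adjusted p = 0.934). Trap1, the mitochondrial Hsp90, was the most abundant of the class, with control counts of 71, 865 and 30 and 8 h counts of 160, 118 and 471. Control 2 was the highest and control 3 the lowest of all 6 libraries per total count. Its log2 fold change of -0.97 ± 1.74 (SE; edgeR adjusted p = 0.904) turned to 2.06 without control 2.

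Small heat shock proteins are ATP-independent chaperones that hold unfolded clients. Among the genes placed in this class by their Hspb symbol, only Hspb11 was abundant. It held most of the counts of the class in each library but control 1. Hspb11, a subunit of the intraflagellar transport complex, stood at 17.7, 215 and 139 CPM in the controls, and its 8 h values were 295, 91.0 and 404 CPM, for a fitted log2 difference of 1.03 ± 1.93 SE (edgeR adjusted p = 0.911), or 0.51 without control 1 and 0.67 without 8 h replicate 3. Hspb1 (Hsp27) had control counts of 120, 13 and 12 and 8 h counts of 18, 91 and 86, and Hspb8, which works with the exchange factor Bag3, had 41, 109 and 68 against 77, 336 and 20. The groups overlapped for all 3 genes. Hspb2, a muscle form, had 538 counts in control 3 and 2 or 3 in every other library, and was not tested. Hspb7, a cardiac form, had control counts of 11, 30 and 10 and 8 h counts of 1, 6 and 14.

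The DnaJ cochaperones, which carry a J domain that stimulates the ATPase of Hsp70, made up the Dnaja, Dnajb and Dnajc classes. Of the 14 tested Dnajc genes 12 had higher and 2 lower fitted values, with a median log2 fold change of 0.71. Leaving out each library in turn, the lowest value was below 0 for Dnajc7 (-0.34), Dnajc13 (-0.42), Dnajc15 (-0.27), Dnajc19 (-0.87) and Dnajc21 (-2.82). The rest of the 12 stayed above 0. Of the 2 lower genes, Dnajc30 reached 0.58 and Dnajc8 stayed below 0. Over all tested accessions 51.3% were higher, with a median of 0.06. Of 6 tested Dnajb genes 2 were higher and 4 lower (median -0.66), and both tested Dnaja genes were higher. The Dnajc class as a whole took 0.612 ± 0.577% of control counts and 0.353 ± 0.143% of 8 h counts (SD, n = 3 per group). The difference of -0.259 percentage points turned to 0.0466 without control 2. Dnajc8 held the most counts of the class in every control and in no 8 h library. No Dnaj gene passed edgeR's test.

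Dnajc9, a cochaperone that also binds histones H3 and H4 (chromosome 14, 20384638 to 20388910), had the highest log2 fold change of the tested chaperone genes. It stood at 43.1, 7.01 and 76.9 CPM in the controls, and its 8 h values were 999, 133 and 1221 CPM, every 8 h library above every control. Means were 42.3 ± 34.9 CPM and 784 ± 575 CPM (SD, n = 3 each), an 18.5-fold difference, for a fitted log2 difference of 3.98 ± 2.29 SE (edgeR adjusted p = 0.625). Without each library in turn the log2 fold change lay between 3.44 and 4.74. Dnajc12, a cochaperone of the aromatic amino acid hydroxylases (chromosome 10, 63382443 to 63408840), stood at 23.7, 6.35 and 1.30 CPM in the controls, and its 8 h values were 65.5, 41.2 and 24.2 CPM. The lowest 8 h value was close to the highest control, and the fitted log2 difference was 1.91 ± 1.76 SE (edgeR adjusted p = 0.781), or 3.59 without control 1. Dnajc27 (chromosome 12, 4082569 to 4124140), whose values are given beside its microRNA site, had a log2 fold change of 1.71 ± 1.60 (SE; edgeR adjusted p = 0.784), or 0.87 without 8 h replicate 1.

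Dnajc8, a nuclear protein found with splicing factors (chromosome 4, 132535559 to 132553742), stood at 613, 6905 and 4851 CPM in the controls, and its 8 h values were 654, 14.1 and 421 CPM. Control 1 lay among the 8 h libraries and the other controls above them, and 8 h replicate 2 stood far below all others. Its fitted log2 difference came to -3.56 ± 2.51 SE (edgeR adjusted p = 0.696). Dnajc15, a mitochondrial inner membrane protein known as a brake on respiration in T cells, stood at 16.7, 3736 and 99.9 CPM in the controls, and its 8 h values were 319, 1761 and 2376 CPM. Its controls spanned a ratio of 223, and the log2 fold change of 0.28 ± 2.20 (SE; edgeR adjusted p = 0.982) ran from -0.27 to 4.43 when each library was left out in turn. Dnajc19, a subunit of the motor that pulls proteins into mitochondria, had control counts of 141, 2833 and 133 and 8 h counts of 4364, 830 and 1059, so its high control was also control 2. Dnajc21, a ribosome maturation factor, had control counts of 26, 2458 and 149 and 8 h counts of 4240, 70 and 290, and Dnajc13, an endosomal protein, 67, 1415 and 170 against 1170, 185 and 2070. For these 3 genes control 2 was the highest control and 8 h replicate 2 the lowest 8 h library. Dnajc18 had control counts of 47, 29 and 35 and 8 h counts of 453, 42 and 442, again with 8 h replicate 2 low.

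Dnajb11 and Dnajb9, DnaJ partners of BiP in the endoplasmic reticulum, had opposite signs. Dnajb11 (chromosome 16, 22857845 to 22879634) stood at 574, 32.9 and 15.7 CPM in the controls, and its 8 h values were 984, 69.0 and 1147 CPM, for a fitted log2 difference of 1.56 ± 2.11 SE (edgeR adjusted p = 0.862). Dnajb9 (chromosome 12, 44205897 to 44210068) stood at 57.5, 7.89 and 4.96 CPM in the controls, and its 8 h values were 1.41, 1.97 and 6.57 CPM, for a fitted log2 difference of -3.07 ± 1.84 SE (edgeR adjusted p = 0.644). Control 1 was the highest control for both genes, and without it the log2 differences were 4.87 for Dnajb11 and -1.03 for Dnajb9. Dnajb13, a component of sperm flagella, had control counts of 16, 139 and 190 and 8 h counts of 28, 215 and 18. Dnaja2, a main DnaJ partner of cytosolic Hsp70, had control counts of 4, 15 and 31 and 8 h counts of 39, 95 and 18, for a fitted log2 difference of 1.13 ± 1.45 SE (edgeR adjusted p = 0.855), or 0.72 without control 1 and 0.71 without 8 h replicate 2.

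**Figure D4:**
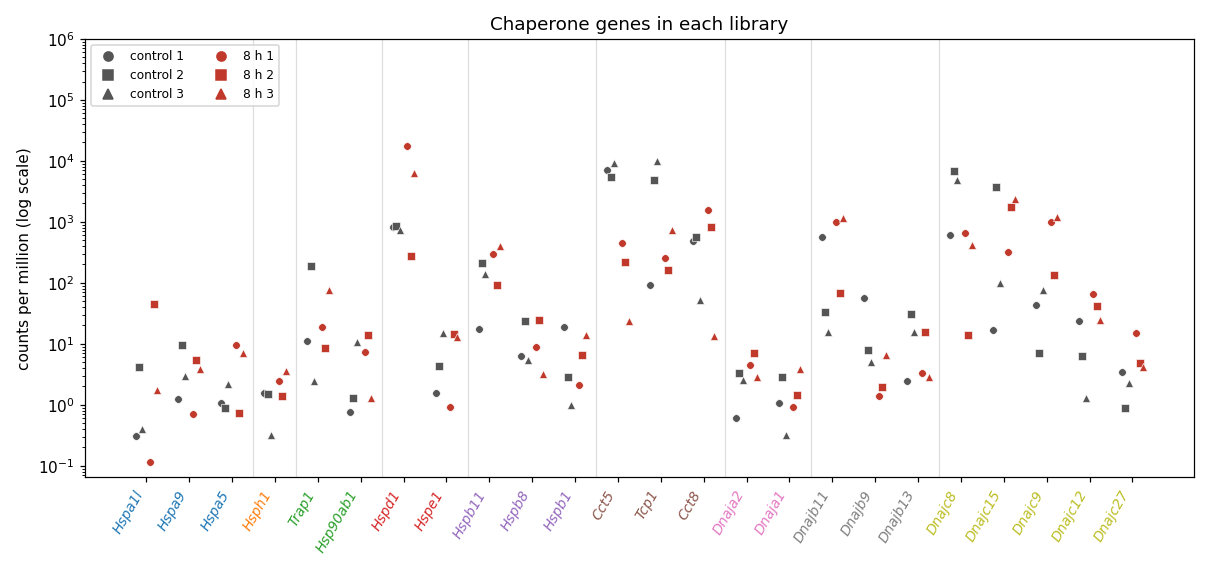
CPM (log scale) of the 24 named chaperone genes in each library, with controls in grey, 8 h in red, replicate number by marker shape and gene names coloured by class. Control and 8 h libraries are separated for Cct5, Dnajc9, Dnajc12 and Dnajc27 and overlap for the other 20 genes.

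The 32 untested genes had a median highest count of 14. Of them 26 had at most 30 counts in every library, and 5 exceeded 100 counts in some library: Hspa1a, Hspa12b, Hspb2, Dnajb7 and Dnajb8. Dnajb7 had 395 counts in control 1 and at most 15 elsewhere, and Dnajb8 had 155 in control 3 and 56 in 8 h replicate 2. Dnajc5, the cysteine string protein of secretory vesicles, was at 0 or 1 count in every library.

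Regulators and partners of the chaperones were taken from 6 lists of 78 genes, of which 75 had a row and 57 were tested. None passed edgeR's test. Fitted values at 8 h were higher for 38 and lower for 19, where 51.3% of all tested accessions were higher. The median log2 fold change was 0.51, against 0.06 over all tested accessions. Groups did not overlap for 4 of the genes, against 10.9% of all tested accessions. Hsf1, the heat shock factor, had control counts of 7, 20 and 727 and 8 h counts of 43, 158 and 446. Of the Hsp70 partners 7 of 11 were higher and 4 lower. Grpel1, the exchange factor of mitochondrial Hsp70, had control counts of 50, 79 and 1194 and 8 h counts of 4347, 10747 and 4857. Every 8 h library lay above every control, and the means of 40.7 ± 49.0 CPM and 691 ± 157 CPM (SD, n = 3 each) gave a log2 fold change of 3.92 ± 2.27 (SE; edgeR adjusted p = 0.629). For Hspa9, the Hsp70 it serves, the groups overlapped. Of the Hsp90 cochaperones 8 of 11 were higher and 3 lower. Of the prefoldin and tubulin folding partners of TRiC 10 of 11 were higher and 1 lower, with groups separated in CPM, though not in counts, for Pdcl and Tbcb. Tbcb, a tubulin folding cofactor, had control counts of 20, 45 and 83 and 8 h counts of 140, 1739 and 66, and Pdcl, a phosducin-like protein, 6, 2 and 17 against 31, 27 and 10. For both genes 8 h replicate 3 stood only just above the highest control in CPM. The log2 fold change of Tbcb was 2.96, or 0.95 without 8 h replicate 2. Of the endoplasmic reticulum list 6 of 14 were higher and 8 lower. Creld2, a secreted factor of that stress response, had control counts of 31, 13 and 41 and 8 h counts of 1791, 1509 and 40, for a fitted log2 difference of 4.79 ± 2.04 SE (edgeR adjusted p = 0.511). Of the list for mitochondrial protein quality control 4 of 6 were higher and 2 lower. DESeq2 called 3 of the listed genes, where it called 6.06% of all accessions to which it gave an adjusted p: Creld2 (adjusted p = 0.00983), Ahsa1, the activator of the Hsp90 ATPase (0.0471), and Grpel1 (0.0492). Over the alternatives the adjusted p of Creld2 ranged from 0.00983 to 0.998 and that of Grpel1 from 0.0492 to 0.998. Ahsa1, named after its values were seen, had control counts of 216, 525 and 248 and 8 h counts of 10212, 21845 and 639.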

How the data were processed

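The authors deposited 1 table of whole-number counts per RefSeq accession, used as deposited. Per the submitters' processing notes, Bowtie, R 3.4.2 and the GRCm38 build were involved, without further detail. How reads were counted, including strand and multiple matches, is not given in the sources used here. Gene names came from RefSeq (GRCm38.p6; 12824 accessions) or GENCODE M21 (50 accessions), and 303 stayed unnamed. Columns were matched by title, and 0 lay outside the series.

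All accessions passing filterByExpr were fitted in edgeR 4.0.16 (R 4.3.3) with TMM scaling and the robust quasi-likelihood F test in its default form, group as the only term, two-sided, Benjamini-Hochberg adjustment over 8308 accessions at 0.05. Each standard error was derived by dividing the size of the log2 difference by the root of its F statistic. Printed CPM use each library's total count, without TMM. Alternatives were RLE and upper-quartile scaling, DESeq2 1.42.0, limma-voom (limma 3.58.1), the newer quasi-likelihood form, an unfiltered table, a minimum mean of 5 CPM, a replicate block and leaving out each library. Genes were named by rule: the 3 tested genes of each class with the highest mean CPM over all libraries, any tested gene past the threshold or with groups that did not overlap (24 in all), partner genes meeting either of the last criteria, and markers of the labelled cell type. Other names were chosen after their values were seen. Levels per length used the longest matched GENCODE transcript. Timm14, another name of Dnajc19, was left out of the partner lists. The fit was run on simulated counts with known changes, where recovery was required only at a variation between libraries far below that estimated here. That run does not measure the power of the test in these data. Members and lists were chosen with earlier results of these data known.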

Additional observations from a re-analysis of the deposited data

How the results depend on the processing

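Counts of called genes were 0 for the table, the chaperones and their partners under RLE and upper-quartile scaling, limma-voom, the newer quasi-likelihood form, both filters and the replicate block, and without each library (0 to 0). DESeq2 called 399, 1 and 3. At an unadjusted p under 0.05, these settings gave between 0 and 4 chaperone genes, and DESeq2 6. Libraries with the same number deviated from their group means with correlations of -0.0107, 0.0151 and -0.0039, so the numbers were not taken to pair the samples. The chaperones' median log2 fold change was 0.85 with the replicate block, 0.81 with limma-voom, 0.27 with no filter and 0.10 to 0.70 without each library. The filter then kept other genes, 34 to 71 over all settings. With counts outside the 100 most abundant accessions as denominator, the 8 h minus control difference, in percent of that denominator, was -3.21 for TRiC, -0.704 for Dnajc, 1.76 for the mitochondrial chaperonin, 0.0992 for Dnajb, 0.0268 for small heat shock proteins, 0.0114 for Hsp70, 0.000941 for Dnaja and 0.000335 for Hsp110. The class counts kept all their genes, so these values are ratios to a smaller denominator. Their sizes cannot be compared with those of shares of all counts. With all counts as denominator and without each library, the difference in share ran from -0.526 to 0.0466 percentage points for Dnajc and from -0.00602 to 0.00280 for Hsp90, with the sign turning only without control 2 in both, and from 0.249 (without 8 h replicate 1) to 1.09 for the mitochondrial chaperonin. For the other 6 classes its sign stayed the same without each library. Of the 28 chaperone and partner genes named by rule, 18 kept their sign under all these alternatives. The sign turned for Trap1 (limma-voom 0.20, replicate block 0.46), Cct8 (limma-voom -0.19), Hspb1 (limma-voom 0.59, replicate block 0.85) and Hspb8 (limma-voom -0.29, replicate block -0.18). Without each library, log2 fold changes ran from -0.11 to 1.32 for Dnaja1, -0.27 to 4.43 for Dnajc15, -0.80 to 5.29 for Hspa1l, -1.06 to 0.45 for Hspa9, -0.20 to 2.89 for Hsp90ab1, -2.13 to 2.06 for Trap1, -0.28 to 1.71 for Hspe1, -0.84 to 1.97 for Hspb1 and -0.96 to 0.89 for Hspb8. They kept their sign but moved by over 1.5 times for Dnajb13 (-2.43 to -0.46), Tbcb (0.95 to 3.50) and Pdcl (0.77 to 1.68), among others given with their values. The cause was not tested. Genes with few counts are limited by depth, at 0.219 to 0.657 CPM for 3 counts.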
